A study of Mus musculus with 112 samples.

Results

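Tight junctions seal neighbouring epithelial cells near their apical side. Claudins form the paracellular strands, occludin (Ocln) and the junctional adhesion molecule F11r sit beside them in the membrane, and the PDZ-domain scaffolds Tjp1 (ZO-1) and Mpdz (MUPP1) tie these membrane proteins to the cytoskeleton. Epcam, an adhesion protein of epithelial cells, binds claudin 7 and is known to protect it from degradation. In the mammary gland these genes are expressed by the epithelium, from which the tumours described here arose. The present account follows Cldn1, Cldn3, Cldn4, Cldn7, Ocln, F11r, Tjp1, Mpdz and Epcam, 9 genes of 18193 with a probe set of their own. Every probe set whose only gene symbol on the platform was that of a listed gene was taken, 17 of 22626 on the array MOE430A (array A) and 4 of 22511 on MOE430B (array B). All 17 and 4 were tested, since no filter on low values was applied.

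The samples were mammary tumours that arose spontaneously under MMTV-PyMT, a transgene that expresses the polyoma middle T antigen from the mouse mammary tumour virus promoter. All 56 tumours carried it, so there was no control without the transgene. The mice came from crosses of PyMT with 18 sublines of AKXD, recombinant inbred lines that carry different mixtures of the AKR/J and DBA/2J genomes, and each subline gave 3 or 4 tumours, each of a different animal by its label. The age of the mice is not given in the sources used here. Whole tumour RNA was measured on both arrays as log2 values, and in such bulk samples fewer cells of a type and less RNA per cell cannot be told apart.

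Arrays whose median correlation with the others of their type lay under 0.95 were left out, which kept 52 arrays A in 17 sublines and 53 arrays B in 18 sublines. Subline 23 has no kept array A. Keratins of luminal epithelium were bright in every kept tumour, with Krt18 between 11.95 and 13.15 and Krt8 between 11.60 and 12.94 on the log2 scale, so the labelled tissue carried its markers. One tumour, tumour 1 of subline 21, stood apart from the rest in the genes described here. Results that rest on it are given with and without it where both were computed. Its Krt8 and Krt18 were the lowest of the kept tumours.

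In that tumour Epcam, Cldn3, Cldn4, Cldn7 and Ocln were all at their lowest, and the sequences before the start sites of these 5 genes are therefore shown. They are the 250 bases before an annotated start, from RefSeq on GRCm38.p6, 5′ to 3′ on the strand of the gene. Capitals mark GC boxes (GGGCGG, which reads CCGCCC on the opposite strand) and the E-box CACCTG (which reads CAGGTG on the opposite strand), a sequence known to be bound by the Snail and Zeb repressors. For Cldn7 and Ocln the second of the annotated starts is shown, whose window held CACCTG while that of the first did not.
Cldn3 promoter, chr5:134985964-134986213, plus strand: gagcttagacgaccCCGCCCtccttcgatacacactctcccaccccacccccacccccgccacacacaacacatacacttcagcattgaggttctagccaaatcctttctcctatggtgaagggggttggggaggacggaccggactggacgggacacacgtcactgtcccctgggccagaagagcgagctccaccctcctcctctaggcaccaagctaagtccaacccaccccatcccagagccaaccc
Cldn4 promoter, chr5:134946935-134947184, minus strand: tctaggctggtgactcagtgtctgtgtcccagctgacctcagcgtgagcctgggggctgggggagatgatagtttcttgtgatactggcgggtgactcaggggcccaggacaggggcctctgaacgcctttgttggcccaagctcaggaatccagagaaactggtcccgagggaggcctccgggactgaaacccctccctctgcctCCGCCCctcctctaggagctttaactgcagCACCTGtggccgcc
Cldn7 promoter, chr11:69965171-69965420, plus strand: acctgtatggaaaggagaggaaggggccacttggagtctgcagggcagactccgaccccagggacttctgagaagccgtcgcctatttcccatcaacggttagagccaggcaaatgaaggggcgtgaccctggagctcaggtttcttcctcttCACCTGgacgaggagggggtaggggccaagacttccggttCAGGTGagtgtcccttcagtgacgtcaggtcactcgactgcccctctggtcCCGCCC
Ocln promoter, chr13:100552499-100552748, minus strand: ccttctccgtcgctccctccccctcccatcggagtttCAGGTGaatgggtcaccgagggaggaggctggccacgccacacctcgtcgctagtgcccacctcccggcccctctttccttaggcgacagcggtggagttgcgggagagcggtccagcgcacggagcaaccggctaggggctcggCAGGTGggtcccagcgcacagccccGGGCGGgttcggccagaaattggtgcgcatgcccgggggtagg
Epcam promoter, chr17:87635729-87635978, plus strand: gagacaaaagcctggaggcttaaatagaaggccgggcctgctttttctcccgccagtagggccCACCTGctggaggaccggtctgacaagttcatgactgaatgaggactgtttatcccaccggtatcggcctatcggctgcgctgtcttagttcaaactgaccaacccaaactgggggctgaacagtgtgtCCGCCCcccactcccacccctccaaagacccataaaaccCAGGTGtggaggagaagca

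Matches to CACCTG numbered 2 in Epcam, 2 in the second Cldn7 window, 2 in the second Ocln window, 1 in Cldn4 and 0 in Cldn3. The first windows of Cldn7 and Ocln, which are not shown, held 0 each, so the count for these 2 genes depends on the start chosen. Of the other members, F11r had 1 and Tjp1 and Cldn1 had 0. The E-box was held by 17.2% of the 32851 promoters given, a GC box by 32.7%, TATAAA by 12.4% and the grainyhead-like motif AACCNGTT by 1.79%, each searched on both strands. No member window held AACCNGTT or TATAAA. A promoter was given for 8 of the 9 genes. These matches describe letters in a window and show no binding.

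**Figure D1:**
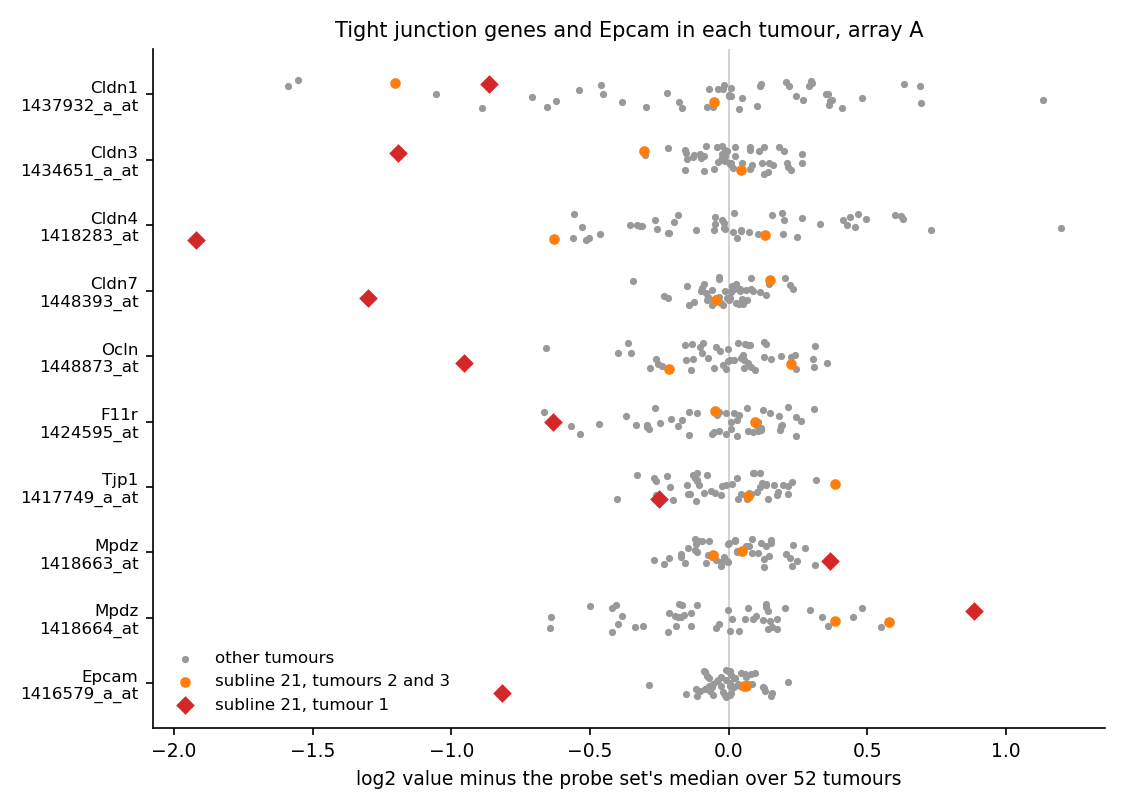
Level of each member in each of 52 tumours on array A, as the log2 value minus the median of its probe set; each point is 1 tumour. The red diamond, tumour 1 of subline 21, lies below every other tumour for Cldn3, Cldn4, Cldn7, Ocln and Epcam and above every other for both Mpdz probe sets, and Cldn1 spreads widely without it.

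Whether the 9 genes differed among sublines was tested with limma's moderated F test over all probe sets, and adjusted p under 0.05 was called. On array A 1 of 17 member probe sets was called, a probe set of Mpdz, against 1.74% of all probe sets. On array B 0 of 4 were called by limma, against 0.671% of all, and 0 of the 4 had an unadjusted p under 0.05 (11.0% of all). On array A 8 of 17, of 5 genes, had an unadjusted p under 0.05, against 15.2% of all. The median range of subline means was 0.55 over the 17 member probe sets and 0.33 over all probe sets of array A, on the log2 scale. With all kept tumours the member probe sets thus spread more among sublines than the median probe set did, while 1 passed the adjusted threshold. Tumour 1 of subline 21 was lowest on 8 of the 17, and the range without it was not computed. Members were also brighter than most: 13 were among the brighter 11313 probe sets, of which 2299 had an unadjusted p under 0.05.

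Cldn1, a claudin of many epithelia and of the skin barrier, had the largest spread over tumours of the 17 member probe sets, with an SD of 0.55. Its bright probe set 1437932_a_at ran from 7.22 to 9.94 with a median of 8.81, and the other bright one, 1450014_at, from 7.29 to 9.94 with a median of 8.67. On 1450014_at subline 25 was highest, with 9.63, 9.94 and 9.15, and subline 21 lowest, with 7.85, 8.80 and 7.29. Every tumour of subline 25 thus lay above every tumour of subline 21, a 3.02-fold difference of means (9.57 ± 0.40 against 7.98 ± 0.77, SD, n = 3 each). These sublines were picked as the ends of the order of means. Of 136 pairs of sublines 24 did not overlap on this probe set, against a median of 15 over all probe sets of array A. The F test did not pass for either probe set (limma adjusted p = 0.0558 and 0.147). With 1450014_at the adjusted p was 0.0411 among the brighter probe sets only, 0.0466 after quantile normalization and 0.0473 without subline 21. The 2 bright probe sets correlated at r = 0.80 over the 51 tumours kept on both arrays. The remaining 2, 1438850_at and 1438851_x_at, had means of 4.23 and 4.28, under the absent poly-A controls (4.79 to 5.10), and gave no measurable level.

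Within sublines Cldn1 followed the keratins. Its bright probe set rose by 1.13 ± 0.26 log2 units per unit of a score of Krt8, Krt18 and Krt19 (SE; limma adjusted p = 0.0396), and Ocln rose by 0.71 ± 0.13 (adjusted p = 0.00604). These were the 2 of 17 member probe sets called with that score on array A, against 0.331% of all probe sets. On array B, with the score read on array A, Ocln 1440220_at had a slope of 0.08 ± 0.05. It did not pass (adjusted p = 0.499), while 515 of 22511 probe sets were called. For the subline without a kept array A, that score came from arrays left out. The other bright Cldn1 probe set had a slope of 0.70 ± 0.26 that did not pass (adjusted p = 0.256). These slopes were not computed without tumour 1 of subline 21, which was lowest in Krt8, Krt18 and Ocln. Over tumours, r with a score of Krt7, Krt8, Krt18, Krt19 and Muc1 was 0.63 for Cldn1 1437932_a_at and 0.72 for Ocln. Without that tumour it was 0.64 and 0.61.

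Cldn3, a sealing claudin of simple epithelia, was measured by 4 probe sets that ran together, with r from 0.87 to 0.95 over tumours and from 0.72 to 0.90 without tumour 1 of subline 21. On the brightest, 1434651_a_at, 51 tumours lay between 12.40 and 12.96 and tumour 1 of subline 21 at 11.51. The values in subline 21 were 11.51, 12.40 and 12.75, in subline 13, the next by mean, 12.54, 12.40 and 12.58, and in subline 3, the highest, 12.78, 12.90 and 12.93. Sublines 13 and 3 did not overlap, while subline 21 held the lowest tumour of all and another above the median of 12.70. On this probe set 48 of 136 pairs of sublines did not overlap, against a median of 15 over all probe sets of array A. None of the 4 probe sets was called among sublines (limma adjusted p = 0.104 to 0.544). Without tumour 1 of subline 21, 1451701_x_at was called among sublines (adjusted p = 0.00689).

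Cldn4, also a sealing claudin and a receptor of a Clostridium enterotoxin, ran from 8.28 to 11.40 with a median of 10.20. The values in subline 21 were 8.28, 9.57 and 10.33 and in subline 13 9.67, 9.64 and 9.69, while the highest mean was that of subline 28 (10.65 ± 0.40, SD, n = 3). The highest single tumour, at 11.40, was tumour 2 of subline 2, whose other tumours read 10.15, 10.19 and 10.46. The range of subline means was 2.39-fold, and the F test did not pass (limma adjusted p = 0.159; 0.0486 with composition scores as covariates).

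Cldn7, the claudin that Epcam binds, was even across the panel apart from 1 tumour. In 51 tumours it lay between 11.69 and 12.27, and tumour 1 of subline 21 read 10.73. Tumours 2 and 3 of that subline read 12.18 and 11.99, within the range of the others. The F test gave a limma adjusted p of 0.865.

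**Figure D2:**
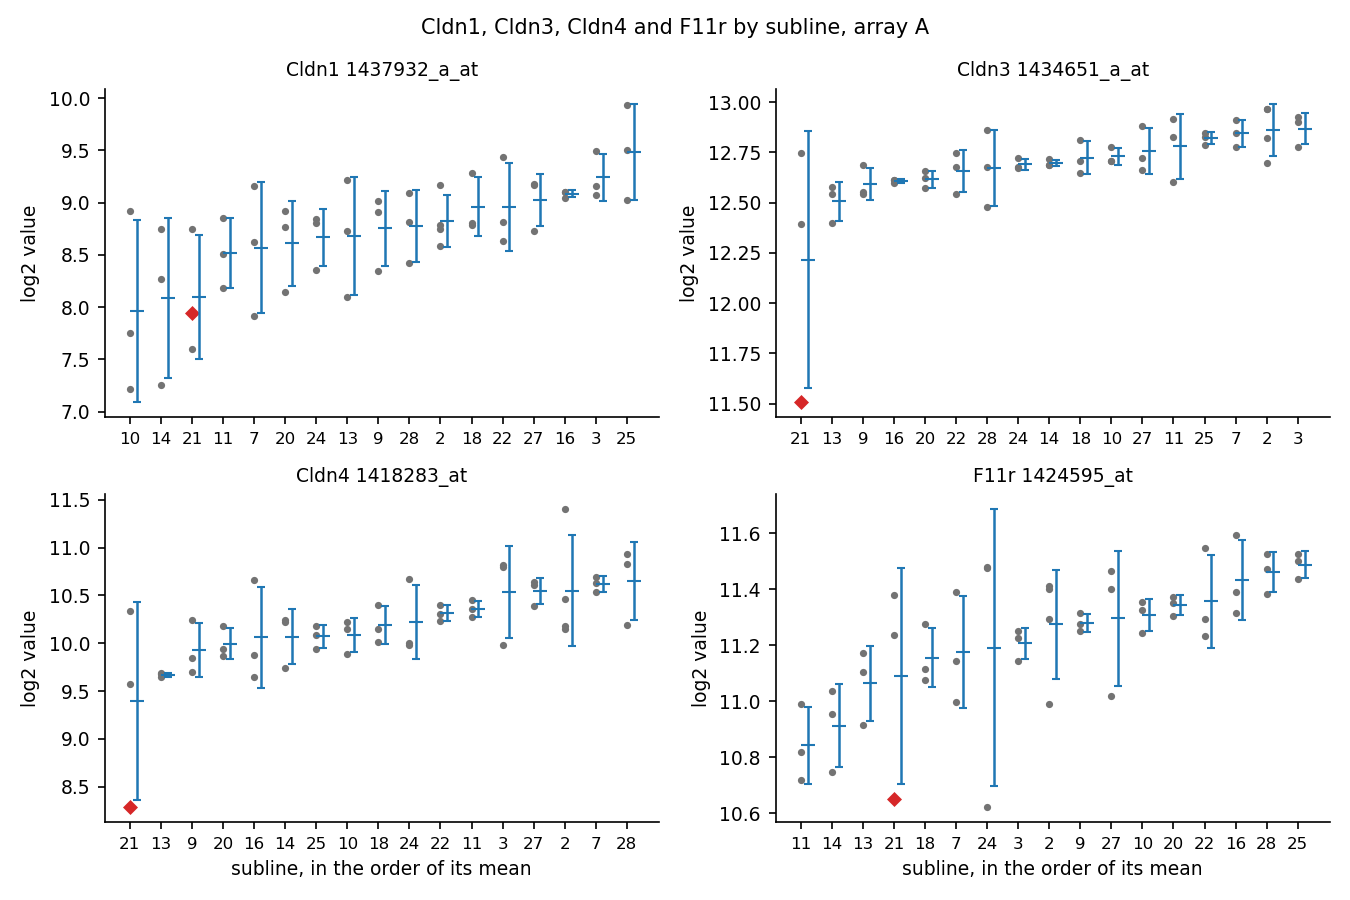
Values of Cldn1, Cldn3, Cldn4 and F11r in each tumour by subline, in log2 units on array A; points are tumours, the red diamond is tumour 1 of subline 21, and blue bars give the mean and SD of a subline, ordered by its mean in each panel. Subline 21 has the lowest mean of Cldn3 and Cldn4 and a wide SD, and sublines 11 and 25 mark the ends of the order for F11r.

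Ocln, a tetraspan protein of the junction strands, ran from 8.32 to 9.63 on array A (median 9.28) and from 7.53 to 8.34 on array B (median 8.07). Subline 3 was highest on array A, with 9.35, 9.50 and 9.63, and subline 21 lowest, with 8.32, 9.50 and 9.06, and the 2 sublines overlapped. Neither probe set was called (limma adjusted p = 0.775 and 0.636). Levels on the 2 arrays went together over 51 tumours (r = 0.72, and 0.63 without tumour 1 of subline 21), although their probe sets differ.

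F11r, which encodes junctional adhesion molecule A, ran from 10.62 to 11.59 on its bright probe set 1424595_at. Subline 11 was lowest, with 10.72, 10.82 and 10.99, and subline 25 highest, with 11.44, 11.53 and 11.50, so these 2 did not overlap. They were picked as the ends of the order, and 47 of 136 pairs did not overlap, against a median of 15 over all probe sets of array A. The means differed 1.56-fold and the F test did not pass (limma adjusted p = 0.150). In subline 24 tumour 2 read 10.62, the lowest of all 52, and tumours 1 and 3 read 11.48 each. The dim probe set 1436374_x_at, with a mean of 6.40, did not follow the bright one (r = 0.07) and was not called (adjusted p = 0.900).

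Tjp1, the scaffold ZO-1, ran from 9.56 to 10.35 with a median of 9.97, and subline means lay within 1.25-fold (limma adjusted p = 0.936). Its highest tumour was tumour 2 of subline 21.

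Mpdz, a scaffold with many PDZ domains, was the 1 member called among sublines, on the probe set 1418664_at (limma F = 9.05, adjusted p = 2.70e-05). Values there ran from 7.12 to 8.65 with a median of 7.76. Sublines 21 (8.65, 8.15 and 8.34), 24 (8.31, 8.24 and 8.06) and 10 (8.12, 7.92 and 8.10) were high. Sublines 11 (7.12, 7.35 and 7.34), 2 (7.26, 7.36, 7.54 and 7.45) and 25 (7.60, 7.12 and 7.58) were low. No tumour of the first 3 sublines overlapped a tumour of the last 3. The mean of subline 21 was 8.38 ± 0.25 and that of subline 11 was 7.27 ± 0.13 (SD, n = 3 each), a 2.15-fold difference. The share of variance between sublines, the intraclass correlation, was 0.717, against a median of 0.0482 over all probe sets. Of 136 pairs of sublines 72 did not overlap, against a median of 15 pairs over all probe sets of array A, of which 0.0177% reached as many. Neighbours in the order of means differed by less than the SD within sublines (0.17) in 15 of 16 steps, which with 17 means was so for nearly every step of every member.

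The call of 1418664_at was kept without tumour 1 of subline 21 (limma adjusted p = 7.42e-05), without subline 21 (0.000417) and with composition scores as covariates (0.000197). It was lost with all 56 arrays (adjusted p = 0.0573) and without replicate 3 of each subline (0.0732).

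The other Mpdz probe sets did not share this pattern. The brighter one on array A, 1418663_at, ran from 7.81 to 8.45 and was not called (limma adjusted p = 0.903), with subline means between 8.01 in subline 7 and 8.27 in subline 10. Its correlation with 1418664_at was 0.34 over tumours and 0.24 without tumour 1 of subline 21. On array B, 1441361_at (mean 6.04) ran the other way, with r = -0.41 against 1418664_at. Its lowest subline was 24, at 5.87 ± 0.11, and its highest 11, at 6.19, and it was not called (adjusted p = 0.552). The fourth, 1442978_at, had a mean of 5.10 near the absent controls of array B (4.62 to 4.86) and was not called (adjusted p = 0.912). The call is therefore one of a single probe set. Probe sequences were not used here, so a difference in transcript level and one in how AKR/J and DBA/2J alleles bind these probes cannot be told apart.

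**Figure D3:**
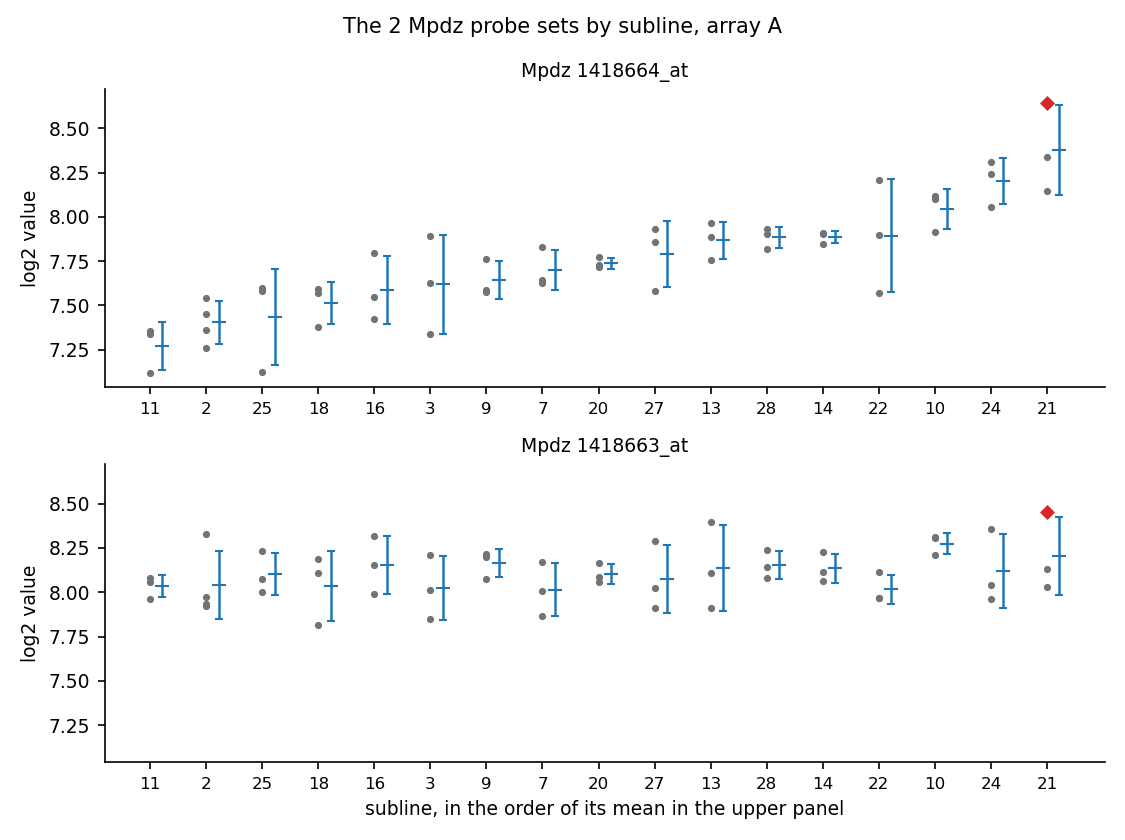
Values of the 2 Mpdz probe sets of array A by subline, in log2 units on the same scale; points are tumours, the red diamond is tumour 1 of subline 21, and blue bars give the mean and SD of a subline. Means rise from 7.27 in subline 11 to 8.38 in subline 21 in the upper panel and lie between 8.01 and 8.27 in the lower one.

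Mpdz lies on chromosome 4. Of 48 probe sets of the 20 genes measured around it, 21 on array A and 27 on array B, 1 was called among sublines, which is near the share over all probe sets (1.74% and 0.671%). It was a probe set of Nfib, the transcription factor gene next to Mpdz (1416293_at on array A, limma adjusted p = 0.0171). Nfib was lowest in subline 24 on that probe set (8.15 ± 0.30) and highest in subline 11 (9.08 ± 0.22, SD, n = 3 each), the reverse of Mpdz 1418664_at, and the correlation of subline means was -0.54 over 17 sublines. Its other 3 probe sets on array A, all brighter, were highest in subline 21 as Mpdz was, with r of 0.16 to 0.40 over subline means. None of them, nor the 3 on array B, was called (adjusted p = 0.226 to 0.886), so the Nfib probe sets did not share a pattern. The genes whose level over 52 tumours was most like that of Mpdz 1418664_at were Lamb1, a laminin chain (r = 0.84), Klhl22, an adaptor of a ubiquitin ligase (r = 0.80), and Hspb11, of intraflagellar transport (r = 0.77). Lamb1 was also called among sublines (adjusted p = 0.0169). These genes were picked as the highest of all, and their r is a description.

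Epcam varied little apart from 1 tumour. On array A 51 tumours lay between 12.85 and 13.35 and tumour 1 of subline 21 read 12.32. Tumours 2 and 3 of that subline read 13.19 and 13.20, above the median of 13.13. The F test did not pass on array A or B (limma adjusted p = 0.871 and 0.993).

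The same fit gave the difference of every subline from the unweighted mean of the remaining ones. Of 17 member probe sets on array A, 6 were called in subline 21 and 0 in any of the other 16 sublines by limma. On array B 0 were called in any of 18. In subline 21 all 4 Cldn3 probe sets were lower, with differences of -0.39 to -0.67 on the log2 scale (adjusted p = 0.00553 to 0.0426), and Cldn4 was lower at -0.85 ± 0.22 (SE; adjusted p = 0.0266). The share of all probe sets called lower there was 0.99%. Mpdz 1418664_at was higher by 0.66 ± 0.10 (adjusted p = 0.000342), against 2.41% of all probe sets called higher.

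The lower claudins of subline 21 rested on its tumour 1. Without that tumour Cldn4 differed by -0.29 ± 0.22 (limma adjusted p = 0.539) and no Cldn3 probe set was called. Mpdz stayed called in subline 21 (0.52 ± 0.12, adjusted p = 0.0241) and was then also called in subline 24 (0.48 ± 0.10, adjusted p = 0.0351). With all 56 arrays none of the 6 calls in subline 21 passed. With the score of Krt8, Krt18 and Krt19 as a covariate, Mpdz was the 1 member called there (0.59 ± 0.11, adjusted p = 0.00696). Cldn4 then differed by -0.57 ± 0.23 (adjusted p = 0.256) and the Cldn3 probe sets by -0.28 to -0.56 (adjusted p = 0.0757 to 0.279). With scores of adipocytes, skeletal muscle, T cells and B and plasma cells, 5 of the 6 were called.

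Tumour 1 of subline 21 was singled out after its values were seen, so what follows describes 1 tumour. It was the lowest of 52 on 8 of 17 member probe sets, those of Cldn3, Cldn4, Cldn7, Ocln and Epcam, while 7.6% of all probe sets of array A were lowest there. It was the highest on both Mpdz probe sets, and 7.71% of all were highest there. Against the median of the other 51 tumours Cldn4 was 3.82-fold lower, Cldn7 2.46-fold, Cldn3 2.29-fold on its brightest probe set, Ocln 1.94-fold and Epcam 1.77-fold. On array B, hybridised separately, it was again lowest for Epcam (10.22 against 10.47 to 10.93) and Ocln (7.53 against 7.62 to 8.34), 2 of 4 member probe sets against 6.53% of all. The Epcam probe sets of arrays A and B had r = 0.42 over 51 tumours and -0.02 without this one. Cldn1 at 7.94, F11r at 10.65 and Tjp1 at 9.72 lay within the range of the others. Of the other 51 tumours 1 was lowest on more of all probe sets (2264 against 1719), and the median tumour was lowest on 318.5.

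Other junction genes were low in the same tumour, by lists of related genes. Of 22 probe sets of other tight junction membrane proteins 9 were lowest there, those of Lsr, Marveld2, Marveld3, Crb3, Cxadr, Igsf5 and Ildr1. Marveld2, tricellulin, which seals the corners where 3 cells meet, read 6.94 against 7.39 to 8.52, and Lsr, which recruits it there, 10.00 against 10.76 to 11.31. In the other direction Clmp, an adhesion molecule related to Cxadr, read 10.13 against 6.34 to 7.41, which is 9.81-fold above the median of the others. Jam2, an adhesion molecule best known from endothelium, was also highest, at 8.26 against 7.27 to 7.90. Of 42 probe sets of scaffolds and polarity proteins 7 were lowest (16.7%, against 7.6% of all probe sets), with Tjp3 (ZO-3) at 7.89 against 8.09 to 9.13 and Patj at 9.12 against 9.44 to 9.95. Of 17 probe sets of other claudins 1 was lowest, that of Cldn2, which is near the share of all probe sets.

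Proteases known to act on Epcam and claudin 7, and their inhibitors, were also low in that tumour. St14 (matriptase), which cleaves Epcam, read 9.89 against 10.61 to 11.21. Prss8 (prostasin), its partner protease, read 8.16 against 8.97 to 9.78, and the inhibitors Spint1 and Spint2 were also lowest, in all 5 of 8 probe sets of the list. That is 62.5%, against 7.6% of all probe sets. Of 20 probe sets of adherens junctions 4 were lowest (20.0%), those of E-cadherin, Cdh1 (9.83 against 10.17 to 11.01), plakoglobin, Jup, and Nectin4. The 1 highest was that of P-cadherin, Cdh3, at 6.88 against 6.12 to 6.79, and 1 of 20 is near the share of all probe sets highest there (7.71%).

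Of 21 probe sets of transcription and splicing regulators of epithelial genes 14 were lowest there (66.7%, against 7.6% of all probe sets), covering 9 of 11 genes. Among them Esrp1 and Esrp2, splicing factors of epithelial cells, read 9.77 against 10.57 to 11.16 and 8.97 against 9.68 to 10.31. Grhl2, a grainyhead-like factor that activates junction genes, read 9.35 against 9.43 to 10.38, and Elf5, a factor of luminal progenitors, 11.42 against 11.81 to 12.81. Of 6 probe sets of repressors of epithelial genes 4 were highest, against 7.71% of all probe sets. Zeb1 read 8.79 against 7.16 to 7.92, Twist1 6.89 against 5.46 to 6.23 and Snai1 8.12 against 7.09 to 8.06. Snai2, at 5.28 against 4.73 to 5.23, was near the absent controls. Zeb1 was also highest on array B (5.64 against 4.48 to 5.08). Genes of these lists are named here after their values were seen.

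**Figure D4:**
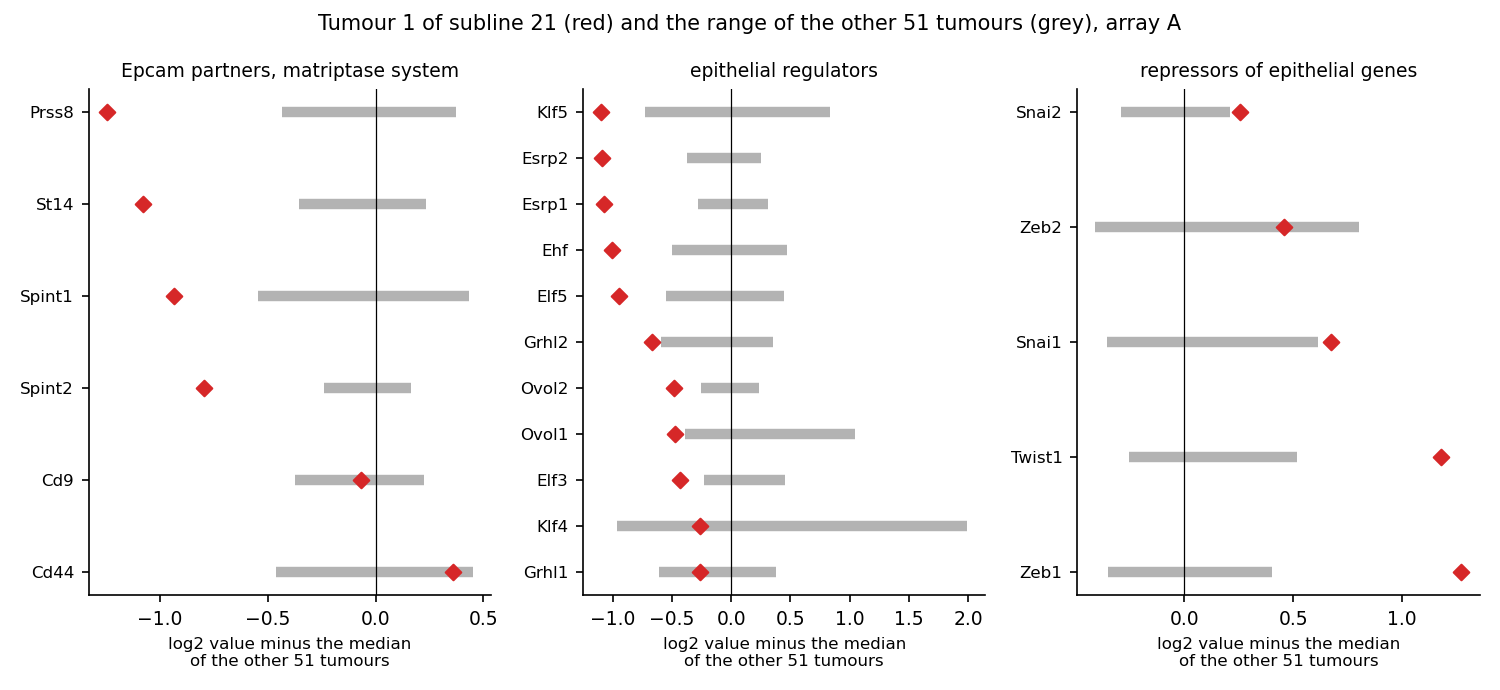
Tumour 1 of subline 21 (red diamonds) and the range of the other 51 tumours (grey bars) for 3 lists of genes on array A, as the log2 value minus the median of the others, with the brightest probe set of each gene. The diamonds of 4 of 6 genes of the matriptase list and 9 of 11 epithelial regulators lie left of the grey bar, and those of 4 of 5 repressors lie right of it.

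Markers of cell types were read in the same way. Of 7 luminal probe sets 6 were lowest in that tumour (85.7%, against 7.6% of all probe sets), and the luminal score was -0.89 against -0.56 to 0.48. Krt18 read 11.95 against 12.58 to 13.15. Of 13 basal and myoepithelial probe sets 3 were highest, all of Trp63, a master factor of basal cells (8.35 against 5.55 to 6.56 on 1452027_a_at), and 1 was lowest, that of Krt17. Of all probe sets 7.71% were highest there and 7.6% lowest, so 1 of 13 lowest is near the share of all. The basal score, 0.40, was the second highest of 52, while the median of the basal probe sets was -0.51 SD from the mean of the other tumours. No probe set of T cells (4), B and plasma cells (16), endothelium (6), macrophages (9), fibroblasts (9), adipocytes (10), skin (8) or salivary gland (6) was lowest or highest there, and of 9 of skeletal muscle 1 was lowest. The fibroblast score was -0.10 against -1.64 to 0.77. With Krt8, Krt18 and Krt19 in the model, as given above, the claudin differences of subline 21 were not called. That of Cldn3 1434651_a_at was -0.41 ± 0.11 in place of -0.50 ± 0.10, and that of Cldn4 -0.57 ± 0.23 in place of -0.85 ± 0.22 (SE). Calls in single sublines over all probe sets of array A then fell too, from 1764 to 785. The part of luminal or basal cells was not tested.

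Whether the members varied together was examined within sublines and over tumours. With subline means in the model, 7 of 16 member probe sets rose with Epcam, those of Cldn3 (4), Cldn7, Ocln and F11r 1424595_at, against 2.37% of all probe sets. Per log2 unit of Epcam, Cldn7 rose by 1.12 ± 0.16 and Cldn3 by 0.91 ± 0.14 on its brightest probe set (SE; limma adjusted p = 1.82e-05 and 2.45e-05). Without tumour 1 of subline 21, 0 of 16 were called by limma in either direction. Of all 22625 probe sets 354 were then called, 112 rising (0.495%) and 242 falling. The 2 members with an unadjusted p under 0.05 were F11r 1424595_at, rising, and Cldn4, falling with a slope of -1.92 ± 0.53 (adjusted p = 0.0520). The slope of Cldn7 was then 0.28 ± 0.23 and that of Cldn3 0.32 ± 0.21, both smaller than with that tumour. The slope of F11r stayed at 0.76, with an SE of 0.32 in place of 0.19 (adjusted p = 0.248). With all arrays 12 of 16 were called, 8 rising and 4 falling. Of all 22625 probe sets 16591 were then called, 7900 rising and 8691 falling, so the member count is near the share of all.

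Over 52 tumours 22 of the 36 pairs of members, each by its brightest probe set, had a called Pearson correlation (permutation test, 100000 resamples, Benjamini-Hochberg over 36 pairs). The resamples shuffled tumours without regard to subline, so these p-values treat tumours of a subline as independent. Without tumour 1 of subline 21, 5 pairs were called, 4 of them among the 22. Epcam and Cldn7 had r = 0.74 with all 52 tumours (permutation p = 0.00181, adjusted 0.00814) and rho = 0.27 (p = 0.0518), and r was 0.18 without that tumour. Epcam and Cldn3 fell from r = 0.64 to 0.05, and Cldn3 and Cldn7 from 0.71 to 0.14. Epcam and Cldn4, at r = 0.23 over all 52, had r = -0.46 and rho = -0.32 without it. This leaned in part on tumour 2 of subline 2, highest in Cldn4 (11.40) and second lowest in Epcam (12.85). With both tumours left out r was -0.32.

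Cldn1 and Ocln correlated with r = 0.67 and rho = 0.67 (permutation p = 1e-05 for each, the smallest the resamples can give; adjusted p = 0.00018 and 0.00036). The value was 0.68 without tumour 1 of subline 21, 0.58 without the 2 tumours farthest in Cldn1, 0.58 within sublines and 0.84 over subline means. Tumours low in Cldn1, such as tumours 1 and 3 of subline 10 (7.22 and 7.75), were low in Ocln too (8.88 and 9.12). These 2 probe sets of array A also followed the keratin score, as given above, and its part in this correlation was not tested.

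Cldn3 and Cldn4 lie next to each other on chromosome 5 with 0 genes between them in the RefSeq table. They correlated with r = 0.68 and rho = 0.50 (permutation p = 2e-05 and 0.00018; adjusted 0.00024 and 0.00216). Without tumour 1 of subline 21 r was 0.44 and rho 0.47, and without the 2 tumours farthest in Cldn3, both of subline 21, r was 0.39. Within sublines r was 0.50 and over subline means 0.83.

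Tjp1 and the bright Mpdz probe set, the 2 scaffolds, ran in opposite directions, with r = -0.59 and rho = -0.54 (permutation p = 1e-05 and 6e-05; adjusted 0.00018 and 0.00108). The value was -0.56 without tumour 1 of subline 21, -0.58 without the 2 tumours farthest in Tjp1, -0.74 within sublines and -0.08 over subline means, so this opposition lay between tumours of a subline. Tjp1 and Ocln rose together, with r = 0.48 and rho = 0.49 (permutation p = 0.00026 and 0.00031; adjusted 0.00234 and 0.00279), and 0.46 without that tumour. With all arrays the r of Tjp1 and Mpdz was 0.10. Within sublines, scores of adipocytes, skeletal muscle, T cells and B and plasma cells were fitted together. Per unit of the T-cell score Tjp1 then fell by 1.17 ± 0.22 and Mpdz 1418663_at rose by 0.79 ± 0.20 (SE; limma adjusted p = 0.000334 and 0.00317). Per unit of the B and plasma cell score Tjp1 rose by 0.35 ± 0.10 (adjusted p = 0.0478). Mpdz 1418663_at had a slope of -0.21 ± 0.09 on it (adjusted p = 0.141). Of all probe sets 40.8% were called with the T-cell score and 823 of 22626 with the other, and the part of these scores was not tested.

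**Figure D5:**
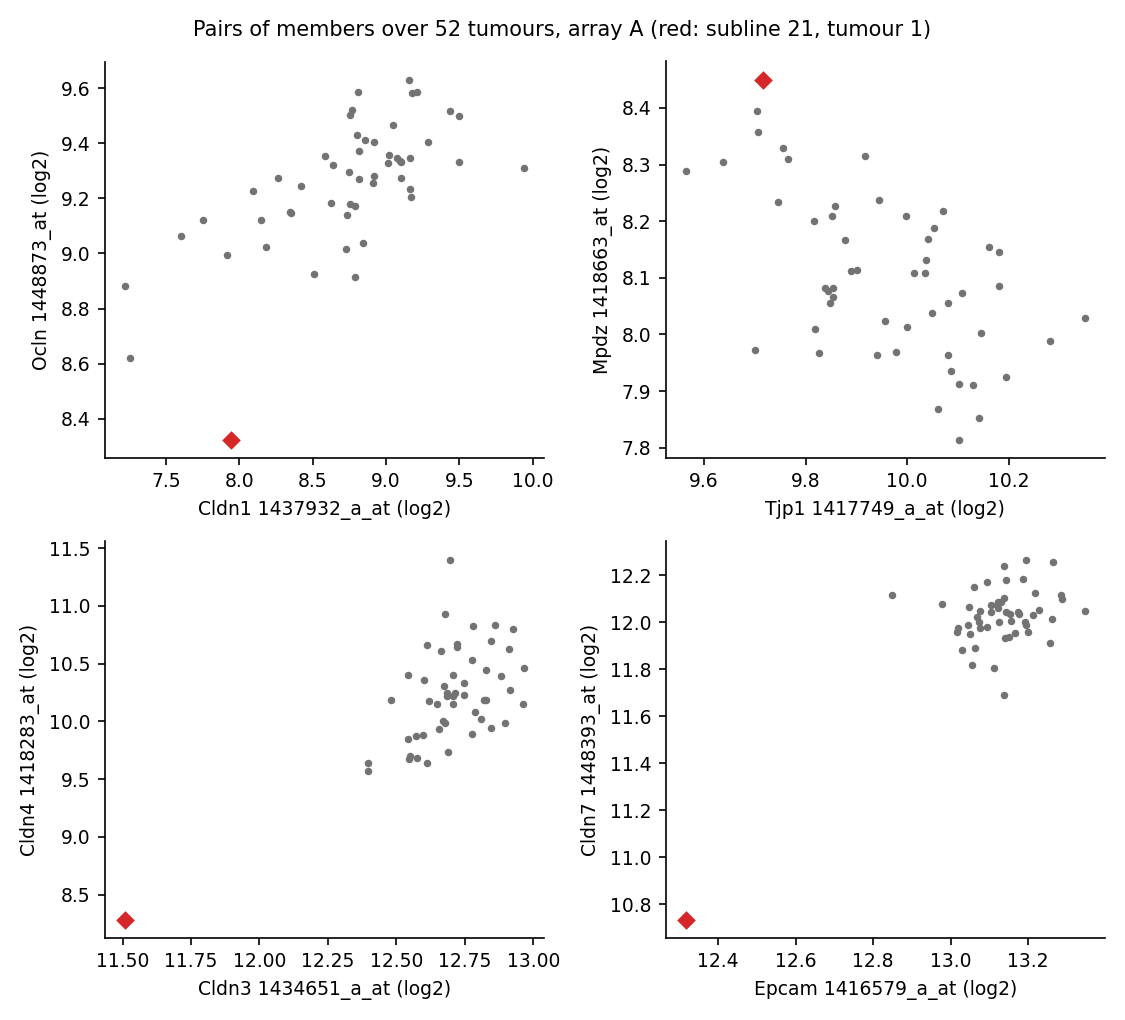
Log2 values of 4 pairs of members over 52 tumours on array A, each point 1 tumour and the red diamond tumour 1 of subline 21. Cldn1 with Ocln (r = 0.67) and Tjp1 with Mpdz (r = -0.59) keep their slope without the diamond, Cldn3 with Cldn4 keeps r = 0.44, and for Epcam with Cldn7 r falls from 0.74 to 0.18.

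The called Mpdz probe set ran against Cldn3 (r = -0.56, rho = -0.40; permutation p = 5e-05 and 0.00371; adjusted over 8 pairs 0.0004 and 0.0297) and Cldn1 (r = -0.47, rho = -0.36; permutation p = 0.00049 and 0.0087; adjusted 0.00196 and 0.0348). Both were smaller without tumour 1 of subline 21, at -0.43 each. Within sublines r was -0.43 with Cldn3 and -0.36 with Cldn1, and over subline means -0.65 and -0.55. The pairs with this probe set were chosen after the data were seen. Its levels differed among sublines, so tumours of a subline are not independent and these permutation p-values are too small. The correlation of the called Mpdz probe set with Tjp1 was -0.03, unlike that of the bright Mpdz probe set.

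The genes most like Epcam over 52 tumours were 2610528J11Rik (r = 0.76), Dennd2d (0.73) and Ehf, an epithelial Ets factor (0.72). Most like Cldn7 were Stard10 (0.80), 2610528J11Rik (0.79) and Cblc (0.77), for Cldn3 Trim46 (0.77), Cblc (0.76) and Arhgap8 (0.75), and for Cldn4 Noc4l (0.77), Dohh (0.76) and Bspry (0.75). Without tumour 1 of subline 21, Noc4l and Dohh remained the first 2 for Cldn4, at 0.71 each, and the first for Epcam, Cldn3 and Cldn7 were Nrbp2 (0.73), B3gat3 (0.63) and Pglyrp1 (0.64). These too were picked as the highest r, with no test.

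Related genes outside the 9 were set against the same shares called of all probe sets (for array A 1.74%, for array B 0.671%). Of other claudins 0 of 22 probe sets on both arrays were called by limma, with Cldn23 and Cldn10 the nearest (adjusted p = 0.356 and 0.408). Of other tight junction membrane proteins 0 of 31 were called, led by Cxadr, the coxsackievirus and adenovirus receptor (0.0704), and Marveld3 (0.130). Of 69 probe sets of scaffolds and polarity proteins 1 was called, that of Prkci, the atypical protein kinase C of the Par complex. It read 8.96 ± 0.22 in subline 22 and 9.76 ± 0.11 in subline 20 (SD, n = 3 each; adjusted p = 0.00725). Of the matriptase list 0 of 10 were called, with Spint1 (0.0592) and Cd44 (0.0889) nearest. Of adherens junction genes 0 of 27 were called (Nectin2 0.235, Nectin3 0.290), of epithelial regulators 0 of 24 (Ovol2 0.171, Elf3 0.241) and of repressors 0 of 13 (Snai2 0.356, Zeb2 0.804). Among luminal markers 1 of 7 was called, Muc1, a surface mucin. It read 9.06 ± 0.42 in subline 10 and 10.51 ± 0.13 in subline 9 (limma adjusted p = 0.00315).

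On the arrays A left out, the values went their own way. Tumour 1 of subline 23 read 10.78 for Cldn3, 8.34 for Cldn4 and 11.14 for Cldn7, below nearly all kept tumours, and 13.24 for Epcam, within their range. Tumour 3 of that subline, on the array least like the others, read 8.52 for Epcam and 7.15 for Cldn3. Tumour 3 of subline 25 read 11.92 for Epcam, 11.79 for Cldn3 and 8.01 for Tjp1. With all 56 arrays 13 member calls were made in single sublines on array A, all in subline 23, and 1 on array B, Ocln in subline 11.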

How the data were processed

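The 56 tumours were each run on 2 single-colour Affymetrix arrays. According to the submitters' processing notes the authors used RMA (robust multi-array average), and what they deposited is a log2 expression value per probe set. No column of the tables belonged to other series (0 such columns). Not given in the sources used here, moreover, were the RMA version, the probe set definition and a genome build. The log2 values were taken as deposited, without the 64 control probe sets of each array and with no filter on low values, and the array types were tested apart. Precision is limited by the number of arrays, since there are no read counts behind these values.

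Gene symbols came from the platform annotation, updated through the RefSeq table of GRCm38.p6. On array A 20380 probe sets had 1 symbol, 691 several and 1555 none, and on array B 14661, 245 and 7605. Arrays with a median correlation under 0.95 were left out. Sublines were compared with limma 3.58.1 in R 4.3.3 by a moderated F test with 1 mean per subline, and each subline with the unweighted mean of the others. P-values were adjusted by Benjamini-Hochberg over every probe set of the array type, and called means an adjusted p under 0.05. Slopes on the brightest Epcam probe set, and on marker scores, had subline means in the model. Marker scores used for array B were read on array A, including arrays A that had been left out. Correlations used two-sided permutation tests with 100000 resamples that took no account of sublines (Python 3.11.15, numpy 2.4.6). The scripts were tested on simulated data.

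Named were all 9 members by every probe set, every member call in a subline, from each related list the called genes or else the 2 with the smallest p, the 3 genes most like the called Mpdz probe set, Epcam, Cldn3, Cldn4 and Cldn7, and the genes beside a called member. The members and lists were chosen with earlier results of these data known. Alternatives were other arrays, normalizations, weights, priors, covariates, a replicate block and leaving out replicates. Leaving out tumour 1 of subline 21, or that subline, and covariates in the comparisons of single sublines, were added after seeing the data. So were the correlations of the called Mpdz probe set. Replicate numbers showed no general pairing of tumours: deviations from the subline mean had a median correlation of 0.0007 over 393 pairs with the same number and -0.003 over pairs with different ones. Of the 393 pairs 115 had r over 0.1, and a median cannot show whether tumours of only some sublines were paired.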

Additional observations from a re-analysis of the deposited data

Results flagged for a closer look

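On the bright Mpdz probe set of array A, tumour 3 of subline 2 stood apart from the other 3 tumours of that subline. It read 8.33 against 7.92 to 7.97, and its gap to the nearest was 0.88 of the whole range of the subline, over the critical value of Dixon's test for 4 samples. This was 1 of 21 groups looked at, and chance passes that value in about 1 of 20. Subline 2 was the only one with 4 kept tumours on array A, and in groups of 3 no such check was made.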

How the results depend on the processing

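The depth of an array cannot be stated, and 3 or 4 tumours a subline limit what can be called. On array A the member count, 1 among sublines, was 2 after quantile normalization, 2 with composition scores, 9 with array weights, 2 without tumour 1 of subline 21, 3 without subline 21 and 0 to 1 without replicate 1, 2, 3 or 4 in turn. With array weights 9234 of all probe sets were called, so the weights raised calls throughout. All probe sets called on array A numbered 889 with all arrays and 14 to 389 leaving out replicates, against 393. On array B, 151 became 30 with all arrays, 4798 with array weights, 619 with the keratin covariate and 25 to 255 leaving out replicates, and members called went from 0 to 1 with array weights. The keratin and composition scores used for array B were read on array A. For the subline without a kept array A they came from arrays that had been left out. The array B counts with these scores were not computed without that subline.

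Member calls in single sublines on array A, 6, became 13 with all arrays, 17 with array weights, 2 without tumour 1 of subline 21, 1 without subline 21, 1 with the keratin covariate (that of Mpdz) and 1 to 7 leaving out replicates. On array B they became 1 with all arrays and 3 with array weights. Such calls over all probe sets of array A went from 1764 to 15709 with all arrays and to 15691 with array weights. On array B they went from 1118 to 2986 and 9276. Of the 6 calls in subline 21, none passed with all arrays or with array weights, and Cldn3 1460569_x_at turned to 0.015 without tumour 1 of subline 21 and ranged from -0.63 to 0.014 leaving out replicates. The 7 member probe sets called with Epcam became 12 with all arrays, 0 without tumour 1 of subline 21, 1 without subline 21 (Cldn4, falling with a slope of -1.93) and 0 to 7 leaving out replicates, where the Cldn7 slope ranged from -0.026 to 1.33. Of all 22625 probe sets 16591 were called with all arrays, against 1163 in the main fit. The Cldn4 slope was not computed without both subline 21 and tumour 2 of subline 2.

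The 22 called pairs became 2 over subline means, 5 without tumour 1 of subline 21 and 5 to 24 leaving out replicates. Without that tumour r of Cldn3 and Ocln was -0.057, and leaving out replicates r of Cldn4 and Ocln ranged from -0.040 to 0.61. With all arrays the r of Mpdz turned positive with Cldn3 (0.20), Cldn4 (0.047), Cldn7 (0.11), Tjp1 (0.10) and Epcam (0.22). The cause of these changes was not tested. With the replicate block, 1 member was called on array A and 6 member calls stood in subline 21, and the replicate block changed no call of a member probe set. By the median correlation given above, replicate numbers showed no general pairing of tumours.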
